A study of Mus musculus with 8 samples.

Results

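Heat shock proteins and their DnaJ partners were described across testes of Ip6k1 knockout and wild type mice. Members were chosen by name: every non-control probe of the array whose gene name begins with Dnaja, Dnajb, Dnajc, Hspa, Hspb, Hsp90, Hsph, Hspd or Hspe, leaving out Hspa2. This rule uses no measured value. It took 109 of 55681 probes and 72 of 34964 gene names. A gene was tested when some group had both of its arrays well above background for a probe of it, which held for 70 of the 72, among 26586 genes in all. Dnajc6, which helps to uncoat clathrin vesicles, and Hspbap1 were well above background on 0 of 8 arrays and were not tested.

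The study compared Ip6k1-/- testes (KO) with Ip6k1+/+ testes (WT) at 26 dpp (days postpartum, weaned juveniles) and at 17 dpp (not yet weaned). All mice were C57BL/6 littermates bred from Ip6k1+/- parents, and all 4 groups (KO at 26 dpp, WT at 26 dpp, KO at 17 dpp and WT at 17 dpp) held 2 arrays, labelled as biological replicates. Ip6k1 encodes inositol hexakisphosphate kinase 1, which adds a phosphate to a phosphate group of an inositol phosphate, so that a pyrophosphate forms. The deleted stretch of the gene is not given in the sources used here. Whole testes were used, so fewer cells of a type and less RNA per cell cannot be told apart.

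Chaperones of the Hsp70 class bind unfolded stretches of protein and release them in cycles driven by ATP. DnaJ proteins (also called Hsp40) bring clients to Hsp70 and trigger its ATPase, while Hsp110 proteins and BAG proteins exchange the nucleotide. Male germ cells are known for carrying their own chaperone forms beside the common stress proteins, and in the mouse the first wave of spermatogenesis moves from spermatocytes to haploid spermatids between the ages studied.

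Levels are log2 intensities relative to the 75th percentile of the same array, so a level of 0 is that percentile, and levels of different probes are not compared. Differences were tested with limma over all 8 arrays, and adjusted p-values cover all 26586 genes, with 0.05 as the threshold. Between 62.1% and 64.7% of probes were well above background on 7 arrays and 58.8% on KO replicate 2 at 26 dpp. That array stood apart before any member was considered: it correlated across genes at 0.917 to 0.948 with the 4 arrays of 17 dpp, at 0.873 and 0.838 with WT at 26 dpp, and at 0.863 with the other KO array of its age. The Ip6k1 probe read 1.41 and 1.30 in KO testes and 2.80 and 2.77 in WT testes at 26 dpp. At 17 dpp the same probe read 1.36 and 1.49 in KO testes and 2.19 and 2.30 in WT testes. All 4 KO arrays thus lay below all 4 WT arrays, and neither difference passed (limma adjusted p = 0.504 at 26 dpp and 1 at 17 dpp). Whether this probe lies in the deleted stretch is not known here. KO replicate 2 at 26 dpp read with the other KO arrays on this probe. Whether the age, genotype and sample of that array are as labelled could not be checked further, so every KO value at 26 dpp carries that doubt.

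Members differed with age about as often as genes in general. In WT testes 40 of the 70 tested members and 14610 of the 26586 genes did not pass. In WT testes 21 of the 70 tested members (30%) were higher at 26 dpp than at 17 dpp, against 18.9% of all genes, and 9 (12.9%) were lower, against 26.1% of all genes. The DnaJ genes made up most of the risers: 17 of 44 rose and 2 fell, with a median log2 difference of 0.38. Of the 26 Hsp genes 4 rose and 7 fell, with a median of −0.46. The median over all genes tested was −0.46 in this comparison, so a member with a difference near that value differed about as much as the median gene. The tests set each difference against 0, not against that median. Under normexp background correction the median over all genes was −0.36, and with quantile scaling −0.28. The members' own median was 0.04. Normexp with quantile scaling put 24 members higher and 17 lower. The count rests on single arrays: without any 1 of the 4 WT arrays 0 or 1 member passed. Without KO replicate 2 at 26 dpp, 25 members (35.7%) were higher in WT testes, against 25.4% of all genes, and 21 (30%) were lower, against 43.7%.

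**Figure D1:**
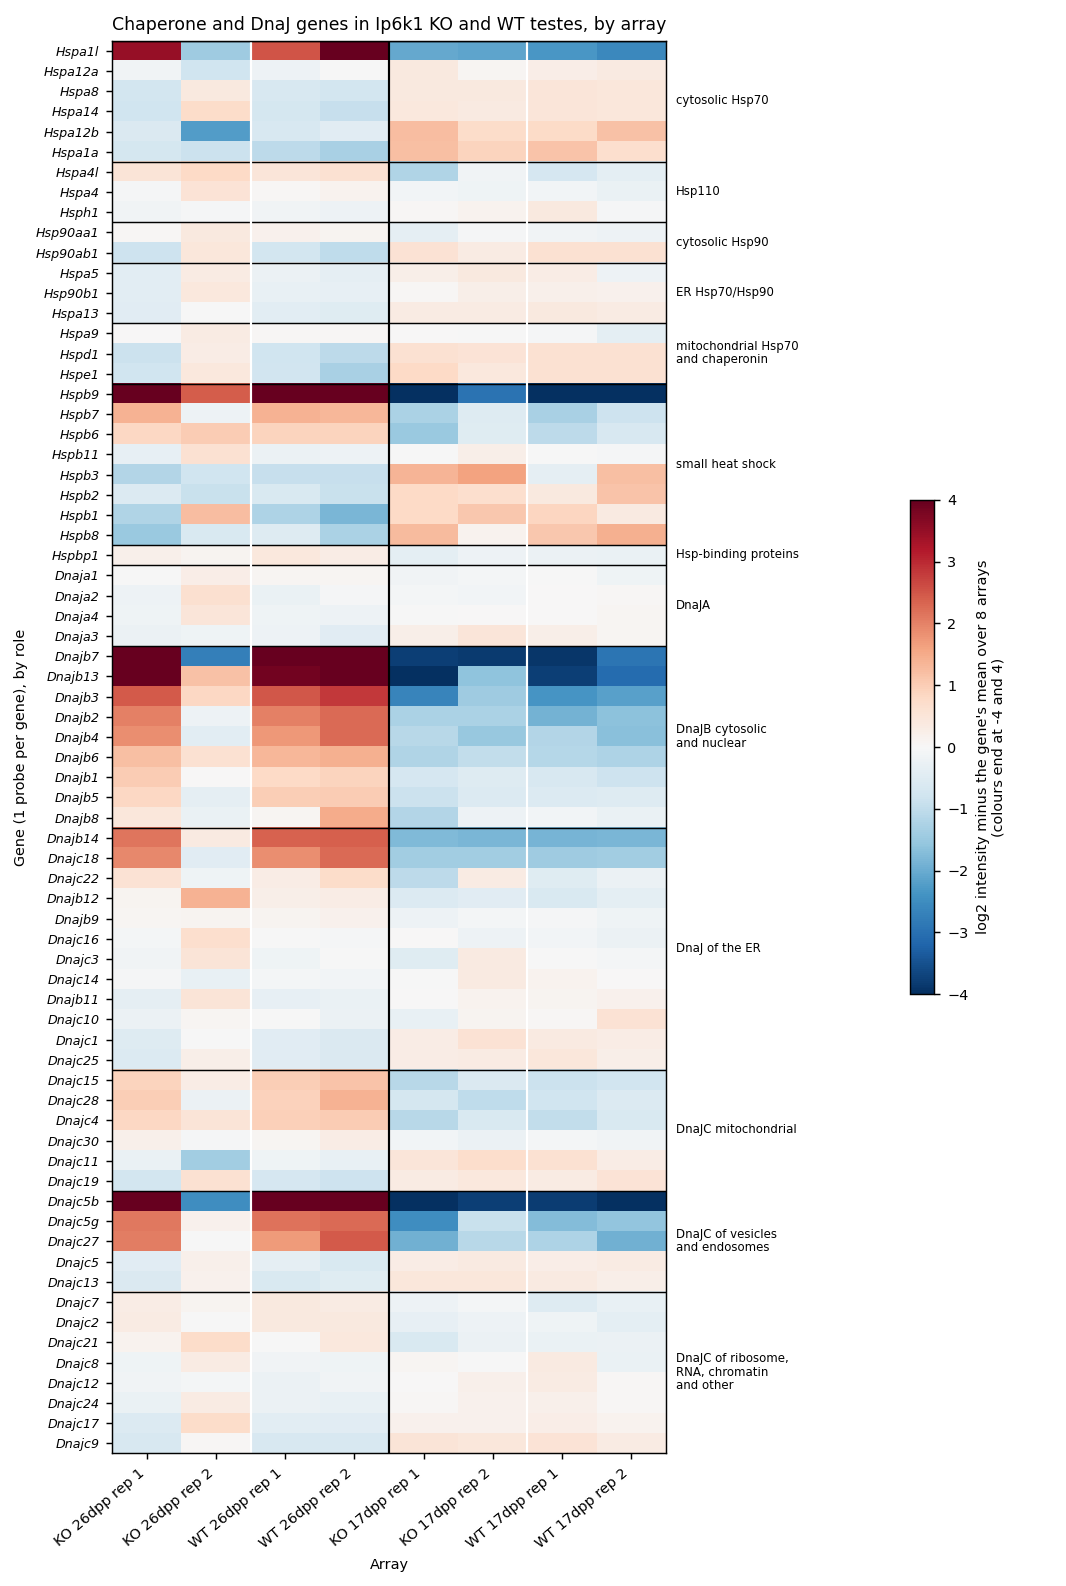
Colours give the log2 intensity of the 70 tested members, each minus its mean over the 8 arrays, with genes in rows by role and arrays in columns (26 dpp left, 17 dpp right, KO left of WT within each age). Most DnaJB rows are red in KO replicate 1 and both WT arrays of 26 dpp and blue at 17 dpp. In these rows the second column, KO replicate 2 at 26 dpp, is paler or blue.

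Markers of haploid cells moved with age as well. Of 14 round spermatid markers 12 rose in WT testes, and of 14 elongating spermatid markers 13 rose, with 0 lower in either list. The median level of the round spermatid list was 3.42 and −3.19 in KO testes and 3.04 and 3.94 in WT testes at 26 dpp. In the younger testes it was −3.62 and −3.49 in KO testes and −4.15 and −4.12 in WT testes. KO replicate 2 at 26 dpp thus sat with the arrays of 17 dpp, with 9 of 14 round spermatid markers above background, against 14 of 14 on the other arrays of its age. In the pachytene spermatocyte list, 8 of 12 rose and 1 fell, and the same array read 3.02, against 3.76 in the other KO array and 3.81 in both WT arrays at 26 dpp. Sertoli markers fell in 8 of 12, spermatogonia markers in 6 of 11, endothelial markers in 6 of 8 and peritubular myoid markers in 5 of 7. Epididymis markers fell in 10 of 11 in WT testes, with a fitted median log2 difference of −5.83. Their median level in WT testes was −7.47 and −7.03 at 26 dpp, against −0.52 and 0.63 at 17 dpp. On each WT array of 26 dpp 2 of 11 were above background, so −5.83 is not a measured size. This list read −7.60 and −7.63 in KO testes at 17 dpp and −6.97 and −7.40 at 26 dpp, so only the WT arrays of 17 dpp were high. Of the other lists, 2 of 9 macrophage markers rose, 1 of 7 Leydig markers rose and 1 fell, and 0 of 7 adipocyte markers passed. The part of these cell types in the members' differences was not tested.

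Among the cytosolic Hsp70 genes the germ cell form and the stress form went opposite ways with age. Hspa1l, an Hsp70 made in spermatids, read 1.51 and −3.37 in KO testes and 0.57 and 2.48 in WT testes at 26 dpp. At 17 dpp it read −4.002 and −4.07 in KO testes and −4.28 and −4.53 in WT testes. All but 1 of the 4 arrays of 26 dpp were far above every array of 17 dpp, and KO replicate 2 lay just above them. In WT testes the rise was 60.8-fold (log2 difference 5.93, SE 1.52, adjusted p = 0.0283). Hspa1a, a heat-inducible Hsp70, read −2.21 and −2.39 in KO testes and −2.56 and −2.83 in WT testes at 26 dpp, against −0.30 and −0.63 in KO testes and −0.37 and −0.84 in WT testes at 17 dpp. The ages did not overlap in either genotype, and the level fell 4.25-fold in WT testes (log2 difference −2.09, SE 0.28, adjusted p = 0.0080). Its near-identical copy Hspa1b has no probe under that name on the array, and which of both copies the Hspa1a probe reads is uncertain.

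The probes of both genes are shown because they are alike in sequence and yet gave opposite age differences. The Hspa1a probe lies at chr17:35107117-35107176 on the minus strand and the Hspa1l probe at chr17:35115629-35115688 on the plus strand (mm9, per the files). Over the 57 bases in which they line up without a gap, 42 are the same and 15 differ, and the capitals in the Hspa1l line mark those 15.
Hspa1a: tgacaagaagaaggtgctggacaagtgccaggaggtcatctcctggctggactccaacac
Hspa1l: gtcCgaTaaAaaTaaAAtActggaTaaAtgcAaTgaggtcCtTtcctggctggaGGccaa

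In RefSeq (GRCm38.p6) the 2 genes start head to head, 547 bases apart, and the probes under their names moved in opposite directions. Whether the Hspa1a copy itself did so is uncertain, as given above. The promoter windows of both genes, from 250 bases before to 50 after the start, are shown for that reason. The Hspa1a window is chr17:34972107-34972406 on the minus strand, and the Hspa1l window is chr17:34972453-34972752 on the plus strand. Capitals mark a 2-unit heat shock element, GAANNTTC, which reads the same on both strands and was found in 7.86% of all 32851 windows. It occurred 1 time in the Hspa1a window, at −104 relative to the start. The Hspa1l window held 0 matches. The Hspa1a window and that of Hspa1b had 296 of 300 bases in common.
Hspa1a: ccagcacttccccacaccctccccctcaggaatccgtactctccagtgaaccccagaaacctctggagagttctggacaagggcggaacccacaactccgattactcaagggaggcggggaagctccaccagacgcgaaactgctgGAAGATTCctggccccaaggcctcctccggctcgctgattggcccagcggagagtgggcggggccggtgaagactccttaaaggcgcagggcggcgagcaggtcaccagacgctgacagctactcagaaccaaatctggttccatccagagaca
Hspa1l: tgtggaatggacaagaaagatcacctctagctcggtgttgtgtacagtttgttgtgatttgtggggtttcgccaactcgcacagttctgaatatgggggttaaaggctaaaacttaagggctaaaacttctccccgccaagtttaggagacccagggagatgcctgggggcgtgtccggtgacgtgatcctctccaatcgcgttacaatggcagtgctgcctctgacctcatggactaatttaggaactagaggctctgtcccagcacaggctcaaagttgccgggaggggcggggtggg

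Hspa8, the constitutive Hsc70, read 6.19 and 7.32 in KO testes and 6.29 and 6.18 in WT testes at 26 dpp, against 7.31 in both KO testes and 7.40 and 7.38 in WT testes at 17 dpp. The other 3 arrays of 26 dpp lay below every array of 17 dpp, while KO replicate 2 lay among them. The WT difference was −1.15 (SE 0.39, adjusted p = 0.0526), just outside the threshold, and of its 3 probes, which differed by −1.44 to −0.81, 1 passed among all probes. Hspa14, an Hsp70-like protein of the ribosome, differed by −1.28 (adjusted p = 0.0747) and Hspa12b, an atypical Hsp70 of endothelial cells, by −1.52 (adjusted p = 0.0632) in WT testes. Of the 6 tested genes of this group 1 rose and 1 fell. Each SE pools the spread of all 4 groups, so the gap between the KO arrays of 26 dpp enters WT differences as well. Where that gap was wide, as in Hspa8, a WT difference could miss the threshold through it. This holds for the counts of the other role groups too.

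None of the 3 Hsp110 genes passed. Hspa4l, an Hsp110 protein abundant in testis, read 4.68 and 4.98 in KO testes and 4.66 and 4.77 in WT testes at 26 dpp, against 2.96 and 4.03 in KO testes and 3.48 and 3.76 in WT testes at 17 dpp. All 4 older testes were above all 4 younger ones, yet the WT difference of 1.09 (SE 0.39) had an adjusted p of 0.0625. Hsph1 (Hsp105) differed by −0.36 in WT testes (adjusted p = 0.250) on its brighter probe, and its dimmer probe differed by 0.47. Hspa4 differed by 0.27 (adjusted p = 0.426).

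The 2 cytosolic Hsp90 forms parted. Hsp90ab1, the constitutive beta form, read 5.72 and 6.998 in KO testes and 5.80 and 5.54 in WT testes at 26 dpp. The younger testes gave 7.12 and 6.86 in KO testes and 7.16 and 7.15 in WT testes. The WT testes of both ages stood well apart, and KO replicate 2 at 26 dpp lay within the range of 17 dpp. The level fell 2.81-fold with age in WT testes (log2 difference −1.49, SE 0.44, adjusted p = 0.0373). Hsp90aa1, the inducible alpha form that is abundant in germ cells, differed by 0.32 in WT testes (SE 0.25, adjusted p = 0.302).

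The mitochondrial chaperonin Hsp60 and its lid Hsp10 fell together. Hspd1 (Hsp60) read 3.57 and 4.73 in KO testes and 3.63 and 3.37 in WT testes at 26 dpp, against 5.04 and 4.97 in KO testes and 5.03 and 5.01 in WT testes at 17 dpp. Hspe1 (Hsp10) read 3.77 and 4.98 in KO testes and 3.78 and 3.26 in WT testes at 26 dpp. At 17 dpp Hspe1 read 5.35 and 4.97 in KO testes and 5.18 and 5.17 in WT testes. For both genes 3 arrays of 26 dpp lay more than 1 log2 unit below the younger testes, and KO replicate 2 was close to them. In WT testes Hspd1 fell 2.88-fold (log2 difference −1.53, SE 0.40, adjusted p = 0.0298) and Hspe1 fell 3.14-fold (log2 difference −1.65, SE 0.44, adjusted p = 0.0314). All 3 kept Hspe1 probes fell, by 1.55 to 1.67 on the log2 scale. Hspa9, the mitochondrial Hsp70 that works with them, differed by 0.26 (adjusted p = 0.391).

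Hspd1 and Hspe1 also lie head to head and share their promoter, shown here because both fell and because it holds the heat shock motif. In RefSeq (GRCm38.p6) 2 starts are listed for Hspd1. The window of 1 of them shares 285 bases with the Hspe1 window, chr1:55087898-55088197 on the plus strand, and the starts are 216 bases apart. Capitals mark 2 overlapping matches to a 3-unit heat shock element, GAANNTTCNNGAA on either strand, at −89 and −84 relative to the Hspe1 start.
Hspe1: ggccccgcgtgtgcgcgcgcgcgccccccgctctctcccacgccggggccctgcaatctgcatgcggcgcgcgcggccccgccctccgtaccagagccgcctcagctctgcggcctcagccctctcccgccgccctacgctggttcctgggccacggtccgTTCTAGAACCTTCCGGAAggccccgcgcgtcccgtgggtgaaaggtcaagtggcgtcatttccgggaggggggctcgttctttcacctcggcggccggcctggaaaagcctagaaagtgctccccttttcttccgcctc

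That 3-unit element was found in 0.603% of the 32851 windows of all genes. Windows were held for 58 of the 72 members (75 windows), and 6 of these windows (8%), of the 4 genes Hspd1, Hspe1, Hsph1 and Dnajb6, had it; every 3-unit match contains a 2-unit one, which stood in 20% of the member windows. In WT testes 2 of these genes fell with age, Dnajb6 rose and Hsph1 did not pass. A match describes the letters only. The Dnajb6 window, chr5:29735648-29735947 on the plus strand, is set beside that of Hspe1 since the same motif stands in a gene that went the other way.
Dnajb6: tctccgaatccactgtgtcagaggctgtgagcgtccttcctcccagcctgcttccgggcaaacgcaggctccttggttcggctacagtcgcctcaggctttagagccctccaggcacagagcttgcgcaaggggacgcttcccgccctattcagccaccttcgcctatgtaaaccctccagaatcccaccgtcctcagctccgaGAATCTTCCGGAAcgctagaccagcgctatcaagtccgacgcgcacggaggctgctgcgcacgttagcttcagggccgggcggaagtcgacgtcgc

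Of the Hsp70 and Hsp90 forms of the endoplasmic reticulum (ER), 1 of 3 passed. Hspa13, a microsomal Hsp70, fell by 0.82 on the log2 scale in WT testes (SE 0.24, adjusted p = 0.0385), and its dimmer second probe differed by 0.13. Hspa5 (BiP), the main ER Hsp70, read 6.38 and 7.14 in KO testes and 6.56 and 6.45 in WT testes at 26 dpp, against 7.03 and 7.19 in KO testes and 7.12 and 6.59 in WT testes at 17 dpp. The ages overlapped in KO testes, and in WT testes 1 of the younger arrays lay just above the older ones. The WT log2 difference of −0.35 did not pass (adjusted p = 0.411). Hsp90b1 (Grp94) differed by −0.49 (adjusted p = 0.239), about as much as the median gene.

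Of these ER genes, Hspa5 and Hsp90b1 carry a different motif. The ER stress element, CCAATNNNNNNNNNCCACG on either strand, was found in 0.119% of all windows and in those of 3 members, Hspa5, Hsp90b1 and Dnajc3. None of the 3 passed in an age comparison. The Hspa5 window is chr2:34771840-34772139 on the plus strand, with the match in capitals.
Hspa5: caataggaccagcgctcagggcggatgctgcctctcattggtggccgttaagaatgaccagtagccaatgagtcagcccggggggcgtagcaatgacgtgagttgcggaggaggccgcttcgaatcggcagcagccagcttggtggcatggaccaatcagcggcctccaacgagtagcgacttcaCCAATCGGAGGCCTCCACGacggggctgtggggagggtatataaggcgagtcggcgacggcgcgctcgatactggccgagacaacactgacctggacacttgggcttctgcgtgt

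The 8 small heat shock proteins, which hold unfolded proteins without ATP, split into 3 that rose and 2 that fell in WT testes. Hspb9, known as a testis-specific member, read 5.38 and 3.51 in KO testes and 5.44 and 5.69 in WT testes at 26 dpp. In younger testes Hspb9 read −3.15 and −1.84 in KO testes and −3.06 and −3.14 in WT testes. Every older testis was more than 5 log2 units above every younger one, KO replicate 2 included. Hspb9 rose 405-fold in WT testes (log2 difference 8.66, SE 0.69, adjusted p = 0.0045). Hspb7 rose 5.34-fold (adjusted p = 0.0229) and Hspb6 (Hsp20) 3.34-fold (adjusted p = 0.0194); both are known from heart and muscle.

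Hspb8 (Hsp22), which works with Bag3 in selective autophagy, read −4.68 and −3.80 in KO testes and −3.72 and −4.45 in WT testes at 26 dpp. In younger testes Hspb8 read −1.94 and −3.05 in KO testes and −2.12 and −1.77 in WT testes. The ages did not overlap, and the level fell 4.39-fold in WT testes (log2 difference −2.13, SE 0.51, adjusted p = 0.0244). Hspb2 fell 2.84-fold (adjusted p = 0.0192), and its divergent neighbour Cryab, counted below among related genes, fell by 1.40 on the log2 scale (adjusted p = 0.0162). Hspb1 (Hsp25) read 3.94 and 6.38 in KO testes and 3.92 and 3.32 in WT testes at 26 dpp, against 5.94 and 6.23 in KO testes and 6.00 and 5.5 in WT testes at 17 dpp. KO replicate 2 at 26 dpp was the highest of the 8 arrays and the other 3 of its age were the lowest. The WT difference of −2.13 was as large as that of Hspb8 and did not pass (SE 0.77, adjusted p = 0.0633). Hspb11 (Ift25), a subunit of the intraflagellar transport complex, differed by −0.20 (adjusted p = 0.643).

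**Figure D2:**
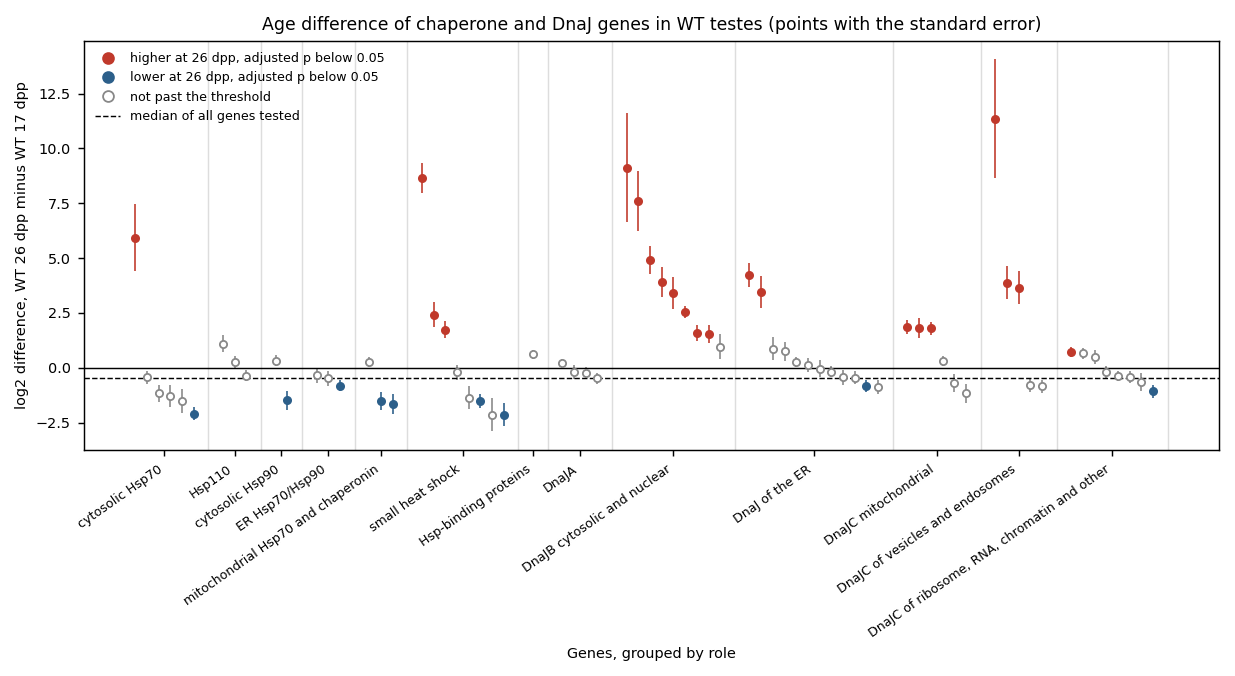
Each point is 1 tested member, placed by role along the x axis, with its log2 difference between WT testes at 26 dpp and at 17 dpp on the y axis and the standard error as a bar. For Dnajb7 and Dnajc5b the point is a fitted value, since WT testes at 17 dpp were not well above background. Filled red points rose and filled blue points fell at an adjusted p under 0.05. Of the 9 DnaJB genes 8 are red and 0 blue, and the dashed line marks the median of all genes, −0.46.

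Of the 9 cytosolic and nuclear DnaJB genes 8 rose and 0 fell in WT testes, against 18.9% and 26.1% of all genes. Their median log2 difference was 3.40, and this list was drawn up with earlier results of these data known. The exception, Dnajb8, a testis form that suppresses aggregation, differed by 0.96 (SE 0.58, adjusted p = 0.201). Dnajb7, a little-known testis form, was well above background in both WT testes and 1 of 2 KO testes at 26 dpp and on 0 of 4 arrays at 17 dpp. It read 1.89 and −6.53 in KO testes and 1.04 and 2.80 in WT testes at 26 dpp, against −7.55 and −7.61 in KO testes and −7.70 and −6.70 in WT testes at 17 dpp. The rise in WT testes was at least 198-fold (adjusted p = 0.0326). Here and below, "at least" sets the bright group against the lowest signals that stood above background. The adjusted p beside such a bound is that of the fitted log2 difference, not of the bound.

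Dnajb13, a protein of the sperm flagellum's radial spokes, read 1.68 and −1.26 in KO testes and 1.41 and 2.08 in WT testes at 26 dpp. At 17 dpp Dnajb13 read −7.64 and −4.05 in KO testes and −6.20 and −5.51 in WT testes, and only 1 array of each genotype was well above background. All older testes stood above all younger ones, with KO replicate 2 the lowest of the older. The WT log2 difference was 7.60 (SE 1.38, adjusted p = 0.0131), a size that rests in part on a signal not well above background. Dnajb3 (Msj1), a DnaJ known from spermatids, read 6.19 and 4.54 in KO testes and 6.21 and 6.57 in WT testes at 26 dpp, against 1.08 and 2.30 in KO testes and 1.38 and 1.57 in WT testes at 17 dpp. The groups of both ages stood apart on every array, and Dnajb3 rose 30.2-fold in WT testes (SE 0.64 on the log2 scale, adjusted p = 0.0078).

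Dnajb6, a broad suppressor of protein aggregation, read 4.84 and 4.24 in KO testes and 4.96 and 5.04 in WT testes at 26 dpp, against 2.43 and 2.65 in KO testes and 2.49 and 2.40 in WT testes at 17 dpp. It rose 5.88-fold in WT testes (log2 difference 2.56, SE 0.28, adjusted p = 0.0063), and KO replicate 2 was closer to the older than to the younger testes. Dnajb1, the partner of heat-inducible Hsp70, read 5.99 and 5.001 in KO testes and 5.78 and 5.87 in WT testes at 26 dpp, against 4.30 and 4.48 in KO testes and 4.34 and 4.16 in WT testes at 17 dpp. Dnajb1 rose 2.99-fold in WT testes (adjusted p = 0.0216), while Hspa1a on the same arrays fell. Dnajb2 (15.0-fold), Dnajb4 (10.6-fold) and Dnajb5 (2.92-fold) also rose, with adjusted p of 0.0121, 0.0187 and 0.0303.

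**Figure D3:**
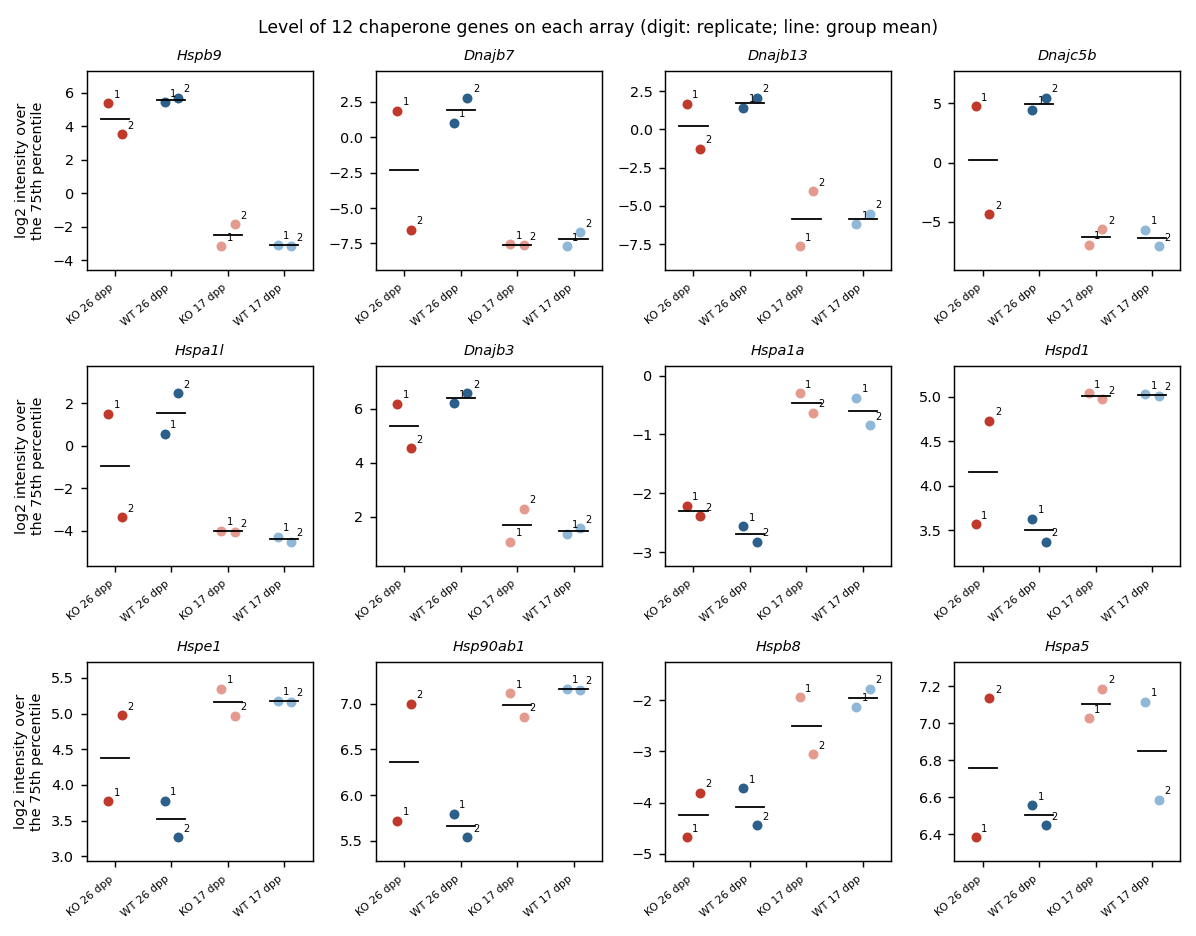
Dots give the log2 intensity of 12 members on each array, relative to the array's 75th percentile, with the replicate number beside the dot and a line at the group mean. In Hspb9 all 4 arrays of 26 dpp lie above 3, whereas in Dnajb7 and Hspa1l KO replicate 2 at 26 dpp falls to −6.53 and −3.37.

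None of the 4 DnaJA genes, the class built most like bacterial DnaJ, passed in WT testes. Dnaja1, a partner of Hsc70, differed by 0.20 (adjusted p = 0.486). Dnaja3, the mitochondrial form, differed by −0.48 (adjusted p = 0.134). Dnaja4 differed by −0.24 (adjusted p = 0.488) on the probe that stood for the gene, and its second probe behaved otherwise, as given further on.

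Vesicle and endosome DnaJC genes gave 3 risers and 0 fallers of 5. Dnajc5, the cysteine string protein of secretory vesicles, has 2 germ cell paralogs, and these rose. Dnajc5b read 4.77 and −4.36 in KO testes and 4.48 and 5.48 in WT testes at 26 dpp, against −6.95 and −5.65 in KO testes and −5.67 and −7.08 in WT testes at 17 dpp. It was well above background on all 4 arrays of 26 dpp and on 0 of 4 at 17 dpp, and the rise in WT testes was at least 1650-fold (adjusted p = 0.0241). Dnajc5g read 2.02 and 0.08 in KO testes and 2.08 and 2.16 in WT testes at 26 dpp, and −2.59 and −0.98 in KO testes and −1.83 and −1.68 in WT testes at 17 dpp. Its ages were apart on every array, with a 14.7-fold rise in WT testes (adjusted p = 0.0153). Dnajc5 itself differed by −0.79 (SE 0.30, adjusted p = 0.0696), and its 2 other probes above background on all arrays differed by −0.96 and −0.99. Dnajc27 (Rabj), which joins a DnaJ domain to a Rab-like GTPase, rose 12.6-fold (adjusted p = 0.0164).

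Of the 12 DnaJ proteins of the ER 2 rose and 1 fell. Dnajb14, a membrane-bound DnaJ of ER-associated degradation, read 6.05 and 4.28 in KO testes and 6.29 and 6.31 in WT testes at 26 dpp, against 2.17 and 2.10 in KO testes and 2.05 and 2.10 in WT testes at 17 dpp. It rose 18.7-fold in WT testes (adjusted p = 0.0078), and KO replicate 2 stood midway between the ages. Dnajc18 rose 11.1-fold (adjusted p = 0.0177), and Dnajc1, a membrane DnaJ that binds ribosomes and BiP, fell by 0.84 on the log2 scale (adjusted p = 0.0450). The other 9, among them the BiP partners Dnajb9, Dnajb11, Dnajc3 and Dnajc10, differed by −0.87 to 0.87.

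Among 6 mitochondrial DnaJC genes 3 rose: Dnajc15, which sits at the inner membrane translocase (3.65-fold, adjusted p = 0.0112), Dnajc28 (3.52-fold, adjusted p = 0.0260) and Dnajc4 (3.46-fold, adjusted p = 0.0106). Dnajc19, another translocase DnaJ, differed by −1.17 (SE 0.45, adjusted p = 0.0754). In the last group of 8, Dnajc7, a partner of both Hsp70 and Hsp90, rose 1.67-fold (adjusted p = 0.0424), and Dnajc9, a histone co-chaperone, fell 2.10-fold (adjusted p = 0.0326).

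Several genes were read by more than 1 probe, and the probes of some did not move alike. Of the 23 members with several kept probes, 10 had differences of both signs in WT testes and 7 spanned more than 1 log2 unit, among them Dnaja4, Dnajc14 and Dnajc21, each with a probe not well above background in a WT group. Of the 23 members 0 had a probe that rose and another that fell past the threshold (limma over all 37810 kept probes, of which 43.4% passed). All 4 Dnajb6 probes rose, by 2.56 to 2.60. The Dnaja4 probe that stood for the gene (chr9:54564061-54564120, mm9) lay between 1.11 and 1.80 on all 8 arrays. A second probe, at chr9:54553902-54553961 on the plus strand, is shown because it lies upstream on that strand, under the same transcript accession, and went its own way.
Dnaja4: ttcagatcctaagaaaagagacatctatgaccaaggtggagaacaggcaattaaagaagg

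That probe read −0.43 and −7.41 in KO testes and −1.22 and 0.06 in WT testes at 26 dpp, against −5.30 and −6.44 in KO testes and −5.47 and −7.75 in WT testes at 17 dpp. The other 3 older testes were far above KO replicate 2 and the younger ones. It was well above background in 0 of 2 WT testes at 17 dpp, and its difference of 6.03, at least 32.8-fold, did not pass (SE 2.16, adjusted p = 0.0629 over all kept probes). The 2 Dnajb9 probes differed by 0.26 (adjusted p = 0.352) and, at chr12:45308272-45308331, by 2.69 (adjusted p = 0.0149) in WT testes. The brighter Dnajb14 probe rose by 4.23, whereas the dimmer one, annotated to another transcript, differed by −0.60 (adjusted p = 0.0803). No exon was assigned to any probe, since no mm9 annotation was used here.

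**Figure D4:**
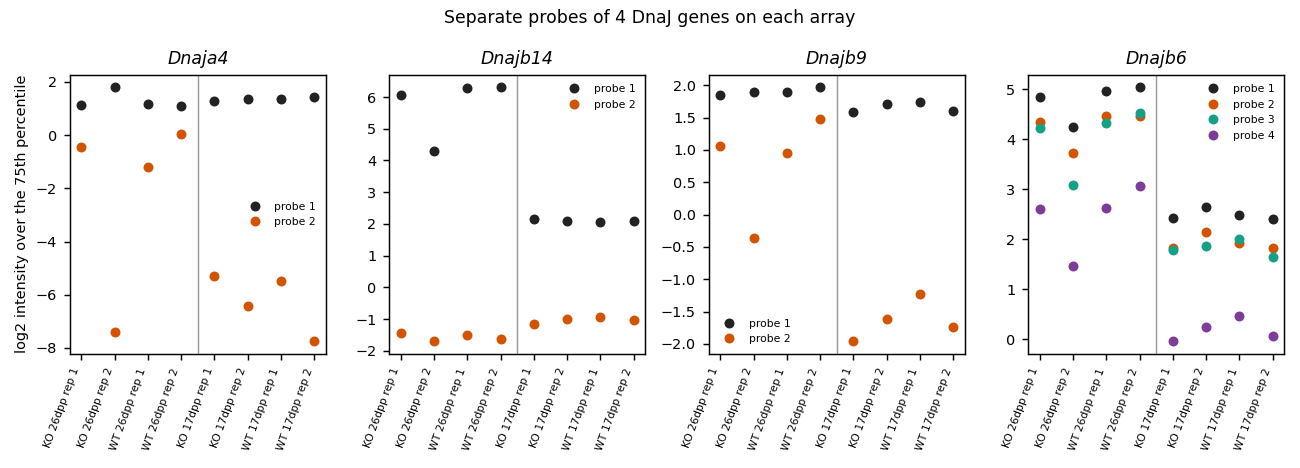
Dots give the log2 intensity of every kept probe of 4 DnaJ genes on each array, with 1 colour per probe and arrays of 26 dpp left of the line. Of the 2 Dnaja4 probes 1 stays between 1.11 and 1.80 on all arrays and the other ranges from −7.75 to 0.06, while all 4 Dnajb6 probes are higher at 26 dpp.

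In KO testes fewer members passed with age when both arrays of 26 dpp were used. Of the 70 members 8 (11.4%) were higher at 26 dpp, against 7.62% of all genes, and 4 (5.71%) were lower, against 8.18%. The risers were Hspb9 (log2 difference 6.94, adjusted p = 0.0136), Dnajb13 (6.06), Dnajb3 (3.68), Dnajb14 (3.03), Dnajb6 (2.00), Hspb6 (1.90), Dnajc4 (1.55) and Dnajc15 (1.43). The fallers were Hspb3 (log2 difference −2.46, adjusted p = 0.0313), Hspa12b (−2.40), Hspa1a (−1.84) and Hspb2 (−1.46). Hspb3, a muscle small heat shock protein, was well above background on 0 of 4 arrays at 26 dpp, which puts its fall in KO testes at 1.29-fold or more. All 8 risers also rose in WT testes, and 2 of the 4 fallers, Hspa1a and Hspb2, also fell there. Without KO replicate 2 at 26 dpp, 22 members (31.4%) were higher, against 21.5% of all genes, and 21 (30%) were lower, against 38.1%. Without 1 of the WT arrays or KO replicate 1 at 17 dpp 0 passed, and without KO replicate 2 at 17 dpp 4 passed. With the replicate number as a block 3 passed.

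The 2 KO arrays of 26 dpp differed in how far they had gone. With the WT mean at 17 dpp set to 0% and that at 26 dpp to 100%, 18 of the members that rose in WT testes lay at a median of 96% (range 88.7% to 110%) on KO replicate 1. On KO replicate 2 they lay at a median of 47.6% (range 11.9% to 106%), and 17 of 18 were between the WT ages. These values depend on how members were picked, since the spread used for passing includes the gap between both KO arrays. Members with a wide gap passed less easily and so were not placed. In Hspb1, for example, replicate 2 read 6.38, against WT means of 5.75 at 17 dpp and 3.62 at 26 dpp. Dnajb7, Dnajc5b and Dnajb13 also rose but were not placed, since a WT array or a KO array was not well above background. The 9 that fell lay at 96.6% on replicate 1 and at 39.2% on replicate 2. Among these risers replicate 2 was lowest on this scale for Dnajb5 (11.9%) and Hspa1l (17.4%). It reached 62.4% for Dnajb3, 76.3% for Hspb9 and 106% for Hspb6. Among the fallers it stood at 10.7% for Hsp90ab1, 11.9% for Hspe1 and 19.1% for Hspd1, but at 85.4% for Hspa1a and 110% for Hspb2. Its round spermatid markers were at −3.19 and its pachytene markers at 3.02, as given above. What set this array apart was not tested.

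**Figure D5:**
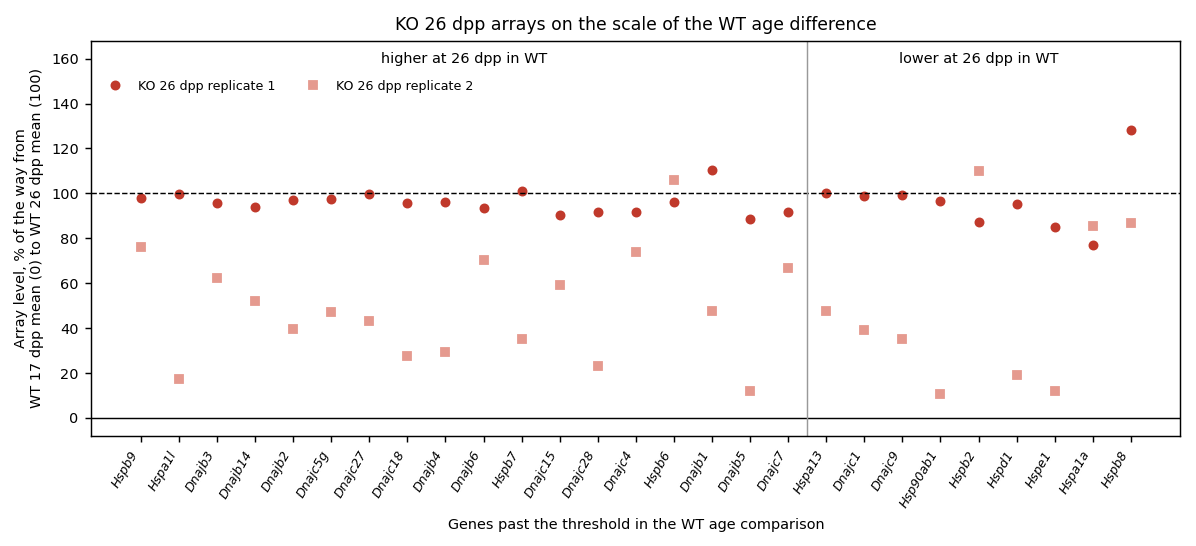
For 27 members that passed with age in WT testes and were well above background on the WT arrays and the KO arrays of 26 dpp, points give the level of each KO array of 26 dpp as a percentage of the way from the WT mean at 17 dpp (0) to the WT mean at 26 dpp (100). Replicate 1 (circles) has medians of 96% for the risers and 96.6% for the fallers, and replicate 2 (squares) spreads from 10.7% to 110%.

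No member passed between KO and WT testes in a comparison that used all 8 arrays. At 26 dpp limma called 0 of 70 members and 0.00752% of all genes. An unadjusted p under 0.05 was reached by 0 members and by 653 of the 26586 genes. Without KO replicate 2 it again called 0, and 0.0376% of all genes. Without KO replicate 1, when replicate 2 stood alone for KO and was assumed to vary like the other groups, it called 37 members and 45.2% of all genes. At 17 dpp it called 0 members and 0.0903% of all genes, and an unadjusted p under 0.05 was reached by 0 members and 383 genes. For the average of both ages and for the change of the KO effect with age it called 0 members and 0% of all genes, with 0 members and 573 and 504 genes at an unadjusted p under 0.05. A p above the threshold with 2 arrays a group does not show that levels were alike.

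At 26 dpp the smallest unadjusted p among members was that of Dnajb14, whose difference of −1.13 (SE 0.55, adjusted p = 0.535) shrank to −0.25 without KO replicate 2. Dnajc18 (−1.33), Dnajb2 (−1.23) and Dnajb5 (−0.77) followed the same pattern, as did Hspb1 (1.54) and Hspe1 (0.85) in the other direction. Without that array these differences were −0.14, −0.12, −0.17, 0.32 and 0.25. With both KO arrays the DnaJB group lay below WT in 9 of 9 genes, at a median of −1.03. In that setting 32 of the 70 members and 12020 of the 26586 genes lay below. With KO replicate 1 alone 8 of the 9 DnaJB genes lay below, at a median of −0.14, as did 50 of the 70 members and 14781 of the 26586 genes. The 70 members spanned −4.78 to 1.54 with both arrays and −0.60 to 0.48 without replicate 2. The upper end of the second range was Hspa1a, which read higher on both KO arrays than on both WT arrays of 26 dpp.

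At 17 dpp the members lay between −0.55 and 1.06, with a median of −0.01, next to 0.02 for all genes. Hspb3 read −5.37 and −5.09 in KO testes and −7.06 and −5.52 in WT testes. Both KO arrays were higher, but only 1 of the 2 WT arrays was well above background, so the fitted difference of 1.06, the upper end of that range, is not a measured size (adjusted p = 1). Hspb9 differed by 0.60, Hspb8 by −0.55, Dnajb8 by −0.51, Dnajc10 by −0.41 and Dnajc7 by 0.25, each with an adjusted p of 1. Epididymis markers were at a median of −7.60 and −7.63 in KO testes and −0.52 and 0.63 in WT testes at this age. Of the 24 genes that passed at 17 dpp 23 were lower in KO testes, and 8 of these were epididymis markers. The part of these markers in the members' differences was not tested.

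Genes that work with the members were counted in WT testes too, in lists chosen by their role. Over all these lists 24 of 97 genes rose and 24 fell, against 18.9% and 26.1% of all genes. Without KO replicate 2 at 26 dpp 67 passed in place of 48, and in the Hsp90 cochaperone list 16 in place of 7. Of the 10 subunits and relatives of the CCT chaperonin, which folds actin and tubulin, 5 rose and 0 fell, led by the testis forms Cct8l1 (at least 60.4-fold, adjusted p = 0.0322) and Cct6b (log2 difference 5.48, adjusted p = 0.0080), and by Tcp1 (2.20, adjusted p = 0.0079). Prefoldin and its relatives, which hand clients to CCT, gave 0 risers and 3 fallers of 8. These were Uxt (−1.93), Vbp1 (−1.56) and Pdrg1 (−1.25). Of 10 nucleotide exchange factors 4 rose and 2 fell, with Bag5 at 3.62 (adjusted p = 0.0089), Bag3 at 2.5 (adjusted p = 0.0241) and the mitochondrial Grpel2 at −1.33 (adjusted p = 0.0484). Bag3 thus rose while its partner Hspb8 fell.

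Among 7 heat shock factors and their regulators 3 rose and 1 fell. Hsfy2, a testis relative of the heat shock factors, was at least 576-fold higher at 26 dpp (adjusted p = 0.0431), Hsf5 rose by 3.15 (adjusted p = 0.0214) and Hsbp1, which binds Hsf1, rose by 2.46 (adjusted p = 0.0124). Hsf1, the main stress factor, differed by −0.34 (adjusted p = 0.246) and Hsf2 by −1.52 (adjusted p = 0.0707). Hsp90 cochaperones gave 3 risers and 4 fallers of 27, with Ttc4 at 1.53, Fkbp6, a meiotic protein, at −1.52 and Sugt1 at 1.31. Of 22 folding factors of the ER 6 rose and 7 fell, the risers led by the germ cell proteins Pdilt (8.55), Calr3 (4.96) and Clgn (3.68). Factors of the unfolded protein response gave 2 risers and 6 fallers of 10, with Trib3 at −2.93, Ppp1r15a at −2.05 and Eif2ak3 (Perk) at −1.96. Of 3 further small heat shock proteins Odf1, of the sperm tail, rose at least 43.9-fold (adjusted p = 0.0358) and Cryab fell. With age in KO testes 10 genes of these lists passed, against 58 without KO replicate 2 at 26 dpp. Of the 10, Cct6b, Tcp1, Clgn, Sdf2l1, Hsf5, Bag5 and Ddit3 rose, and Serpinh1, Hsf4 and Cryab fell. Between KO and WT testes limma called 0 genes of each list in each comparison.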

How the data were processed

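RNA of whole testes, primed with oligo-dT and labelled with Cy3 per the labels' protocols, was hybridised to 8 one-colour arrays. The authors deposited linear intensity values per spot, made with Agilent Feature Extraction 11.5.1.1 per the file headers, and log2 values of their own. Per array, the deposited log2 values and log2 of the processed signal correlated at 0.999906 to 0.999946. All arrays were on 1 slide and in 1 scan.

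Here the processed signal was averaged over spots of a probe without outlier flags (0 spots were saturated), and log2 of each array's 75th percentile was subtracted. Probes were used where 1 or more groups had both arrays well above background, which left 103 of the 109 member probes, and the kept probe with the highest mean stood for a gene. limma 3.58.1 (R 4.3.3, data.table version 1.17.8) fitted 4 group means over all 8 arrays, with two-sided tests and Benjamini-Hochberg adjustment over 26586 genes. With 4 residual degrees of freedom, the number of arrays limits the precision. The p-values set each difference against a spread between arrays that is pooled over all 4 groups. Sequences are RefSeq windows (GRCm38.p6) and the array's own probes (mm9), searched with Python 3.11.15, and 0 per-sample columns were left unused.

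Members, role lists and pathway lists were chosen with earlier results of these data known. The text names, per role list and age comparison, up to 3 passing members with the largest difference. It also names up to 6 members with the smallest p between KO and WT at each age, and a fixed set of well-known chaperones. Other members were added after their values were seen: Dnajb4, Dnajb9, Dnajb11, Dnajc3, Dnajc14, Dnajc21, Dnaja3, Dnajc19, Hspa4, Hspa14 and Hspb2, and the pathway genes Hsf1 and Hsf2. Each pathway list is given by its counts and up to 3 passing genes. Same-numbered arrays share only a number: their deviations correlated at 0.11, −0.40, −0.07 and −0.11.

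Alternatives were normexp background correction (offset 50) with the percentile or quantile scaling, the deposited log2 values, no filter or a stricter filter on dim probes, the mean of a gene's probes, a variance trend, a replicate block, only the groups compared, and each array left out in turn. The place of KO arrays between the WT ages was taken only for members that passed with age in WT testes. They also had to be above background on those arrays, a limit set after the data were seen.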

Additional observations from a re-analysis of the deposited data

Results flagged for a closer look

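In 2 members (2.86%) both KO arrays lay above both WT arrays at 17 dpp and below both at 26 dpp. Of all genes tested 4.62% had KO and WT arrays apart at both ages in opposite ways, whichever came first. Dnajb14, an ER-bound DnaJ, read 6.05 and 4.28 in KO testes and 6.29 and 6.31 in WT testes at 26 dpp, against 2.17 and 2.10 in KO testes and 2.05 and 2.10 in WT testes at 17 dpp. Its lower KO array at 17 dpp read 2.101 and its higher WT array 2.098, so their order at that age is close to a tie. Its KO effect at 26 dpp minus that at 17 dpp was −1.19 (SE 0.78, limma interaction, adjusted p = 0.781), and −0.31 without KO replicate 2 at 26 dpp. Dnajc7, a partner of Hsp70 and Hsp90, read 5.48 and 5.30 in KO testes and 5.58 and 5.52 in WT testes at 26 dpp, against 4.99 and 5.13 in KO testes and 4.70 and 4.92 in WT testes at 17 dpp. Its change of the KO effect was −0.40 (adjusted p = 0.781), and −0.31 without that array. Neither change passed.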

How the results depend on the processing

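With 4 groups of 2 arrays, the counts of passing members followed single arrays. In WT testes the 30 passing members became 0 to 46 when 1 array was left out: 0 or 1 without any WT array, and 46 without either KO array of 26 dpp, as in a fit of the groups compared alone (46). The 12 of KO testes became 0 to 43 (43 without KO replicate 2 at 26 dpp), 3 with the replicate block and 0 with only the groups compared. Without KO replicate 1 at 26 dpp, where replicate 2 stands alone for KO, 37 members differed between KO and WT at 26 dpp (range 0 to 37), 21 in the average (0 to 21) and 24 in the change of the KO effect (0 to 24). The other settings gave 24 (replicate block) to 41 members (normexp and quantile, 24 higher and 17 lower, beside 21 and 9) in WT testes. Directions turned for Hsph1 (0.052) and Dnaja4 (2.895) with age in WT testes when a gene's probes were averaged. For KO against WT at 17 dpp, leaving out 1 array gave −1.102 to 0.007 for Hspb8 and −0.055 to 1.259 for Hspb9, both turning without KO replicate 2. The cause was not tested. The slide could not be used as a block, since all arrays share it.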
